A study of Mus musculus with 6 samples.

Results

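The genes described here encode the machinery of the endoplasmic reticulum (ER) that takes in, folds, glycosylates and disposes of secretory and membrane proteins, together with the sensors and factors of the unfolded protein response (UPR). They comprise 40 genes of the 26656 Ensembl gene IDs listed for mouse Neuro-2a (N2a) neuroblastoma cells. By role they fall into 11 chaperones and cochaperones, 5 disulfide isomerases, 9 genes of the translocon, 6 of N-glycosylation, 5 of ER-associated degradation (ERAD) and 4 UPR sensors and factors. The genes were chosen by role with the NPM1 KD and CTR values of these same libraries in view, so their differences between the conditions are given as a description and nothing is read from how many of them moved.

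N2a cells, labelled wild type, were transfected with pLKO.1-shNpm1, a plasmid expressing a single shRNA against Npm1 (NPM1 KD), or with a non-target shRNA plasmid (CTR), and were collected after 72 h. Npm1 encodes nucleophosmin, an abundant nucleolar protein. A puromycin selection is described for the NPM1 KD experiments. For CTR cells it is described only in a ChIP-qPCR experiment of the same study, and for the CTR cells sequenced here it is not stated in so many words. Each condition has 3 libraries of barcoded cDNA read as long nanopore reads. The treatment protocol speaks of 2 biological replicates per condition, while the design text gives 3 and 3 are labelled. Whether the spread between these libraries is biological or technical is thus not settled, and it may be technical. The tests rest on a variance shared over genes of similar level in these libraries, not on each gene's own spread. In bulk RNA, a lower value can stand for fewer cells of a type or for less RNA per cell, and these cannot be told apart.

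Proteins bound for secretion enter the ER through the SEC61 channel. Inside, the Hsp70 chaperone BiP (Hspa5) and the Hsp90 paralogue GRP94 (Hsp90b1) hold unfolded chains, the lectins calnexin and calreticulin retain glycoproteins, and protein disulfide isomerases form and shuffle disulfide bonds. When unfolded protein accumulates, IRE1 (Ern1) splices the mRNA of Xbp1, PERK (Eif2ak3) phosphorylates eIF2α and thereby favours translation of ATF4, and ATF6 is cleaved in the Golgi to release a transcription factor. XBP1 and ATF6 then raise the transcription of many chaperone and ERAD genes, partly through ER stress response elements (ERSE) in their promoters.

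The letters of the ERSE were searched on both strands as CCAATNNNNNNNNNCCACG in RefSeq promoters of the GRCm38.p6 build, each running from 250 bases before to 50 bases after a gene's start. A promoter was at hand for 34 of the 40 genes (not for Atf6, Derl1, Hyou1, Manf, Sec61a1 and Ssr2). An ERSE match stood in 8 of these 34 genes (23.5%), against 37 of all 27025 genes with a promoter (0.137%). The letters themselves were not used in the choice by role. The UPR was one of the roles, however, and several of these genes are its textbook targets. The 2 shares are therefore a description and not independent support for the group. Capitals mark the fixed letters, and each match is read in the orientation that holds them.
Hspa5: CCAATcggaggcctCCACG
Hsp90b1, nearer match: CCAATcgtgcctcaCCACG
Hsp90b1, farther match: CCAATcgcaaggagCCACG
Calr: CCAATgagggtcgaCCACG
Canx: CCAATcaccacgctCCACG
Creld2: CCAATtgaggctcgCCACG
Dnajc3: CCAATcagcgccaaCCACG
Pdia6: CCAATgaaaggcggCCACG
Syvn1: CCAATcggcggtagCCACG
In Calr, Creld2 and the nearer match of Hsp90b1 the element lay on the strand opposite to the gene, and in the others on the gene's own strand. Counted with -1 as the base just before the start, the matches lay upstream in every case, from -212 to -194 for the farther one of Hsp90b1 to -44 to -26 for Syvn1.

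Hspa5 held an exact ERSE match from -65 to -47 and also a TGACGTGA, the core of the UPR element (UPRE), from -157 to -150. Its 200 bases before the start, at chr2:34771890-34772089 on the plus strand of GRCm38.p6, are shown as the promoter of the gene with the largest difference among the 37 tested, with the ERSE letters and the UPRE core in capitals.
Hspa5 upstream: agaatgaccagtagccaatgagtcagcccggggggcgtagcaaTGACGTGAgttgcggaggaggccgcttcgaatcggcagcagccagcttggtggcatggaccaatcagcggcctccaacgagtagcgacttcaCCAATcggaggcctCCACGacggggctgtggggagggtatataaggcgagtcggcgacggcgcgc
The other UPRE core, TGACGTGG, was found in Txndc5 from -138 to -131. Either core was found in 367 of 32851 promoters (1.12%). The ERSE-II, ATTGGNCCACG, was found in Herpud1 from -52 to -42 and in Dnajb11 from 8 to 18 after the start, and in 12 promoters in all. Herpud1 also held TTGCATCA, a core bound by ATF4 and C/EBP factors, from -112 to -105, as did 294 of all promoters (0.895%). Only exact matches were searched for, so elements that depart from these letters are neither counted nor marked, in Hspa5 or elsewhere. A match is a description of letters and not evidence of a bound site.

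The values are regularized log (rlog) values, which are on the log2 scale, normalized for library size and shrunk towards a gene's mean, and which were deposited as whole numbers wherever they are 1 or more in size. A step of 1 is thus about 2-fold before shrinkage and rounding are allowed for. Since the values are shrunk, a step can stand for more than 2-fold in genes with few reads, such as Ern1 below. Each value is uncertain by up to 0.5 from rounding alone. A difference between the means of the conditions is therefore uncertain by up to 1. Of the 5752 genes tested (rlog values averaging at least log2 of 10 over the 6 libraries), 2310 (40.2%) had one value in all 6 libraries. Of the 40 genes described, 37 were tested, and Syvn1, Ern1 and Eif2ak3 lay below the limit. The mean normalized counts that the authors give for the 40 genes ran from 2.18 for Syvn1 to 581 for Rpn1, with a median of 68.9. These are counts of long reads normalized for library size, and how well they rank the genes by level was not tested.

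Npm1, the targeted gene, read 10 in all 3 CTR libraries and 8 in all 3 NPM1 KD libraries. Relative depths, worked out from the authors' mean normalized counts, were 1.11 to 1.30 in CTR and 0.784 to 0.961 in NPM1 KD, so depth differed with the condition and its part in the results was not tested. Of 13 markers of sympathoadrenal neuroblastoma, 11 read 2 or more in all libraries (Phox2a and Th did not), and none of the 15 markers of astrocytes, microglia and leukocytes, fibroblasts or secretory epithelium did. The sum of the neuroblastoma markers' rlog values was 66.3 to 67.4 in CTR and 58.4 to 61.5 in NPM1 KD. Of the 13, 5 (Isl1, Chga, Chgb, Stmn2 and Tubb3) were lower in every NPM1 KD library than in every CTR library. Among all tested genes, 3.41% were so. The part of this shift in the ER genes' values was not tested.

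Of the 37 tested genes, 15 had a higher mean in NPM1 KD, 9 a lower mean and 13 the same mean, with a median difference of 0. Among all 5752 tested genes, 1416 were higher (24.6%), 1574 lower (27.4%) and 2762 the same (48.0%), also with a median of 0. The 3 NPM1 KD libraries lay above all 3 CTR libraries in 4 genes (Hspa5, Manf, Sec61b and Dad1), where 2.19% of all tested genes did so, and below them in 1 gene (Canx), where 3.41% did so. In the limma fit over all tested genes, with Benjamini-Hochberg adjustment, 1 of the 37 (Hspa5) passed the threshold of 0.05 as higher, beside 0.0695% of all tested genes, and 0 passed as lower, beside 0.417%. At an unadjusted p under 0.05 there were 6 higher and 2 lower, beside 6.07% and 8.07% of all tested genes. Since the same values chose the genes, these counts are not evidence about the group. The standard errors (SE) of the fit followed a gene's level and not its own spread between libraries. Manf (SD 0 in both conditions) and Sec61a1 (SD 0.58 in both) each had an SE of 0.345. Each p-value thus rests on a variance shared over genes of similar level. Hspa5 no longer passed when any 1 of the 6 libraries was left out.

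**Figure D1:**
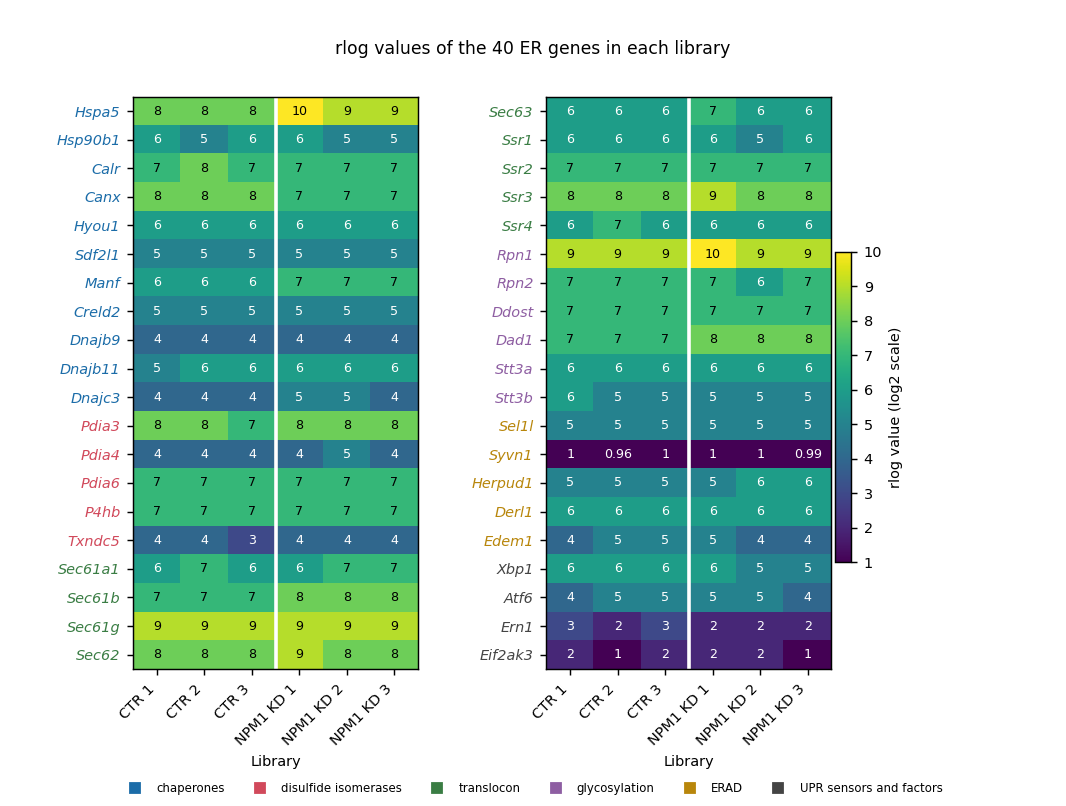
rlog values (log2 scale, whole numbers where 1 or more in size) of the 40 ER genes, one row per gene and one column per library, with CTR left and NPM1 KD right of the white line and gene names coloured by role. Hspa5 steps from 8 in every CTR library to 9 or 10 in NPM1 KD, Canx from 8 to 7, and 12 of the 37 tested genes have the same value in all 6 libraries.

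Among the chaperones, Hspa5 stood out. It encodes BiP, the Hsp70 of the ER, which also restrains the UPR sensors by binding to them. Hspa5 read 8, 8 and 8 in CTR against 10, 9 and 9 in NPM1 KD. Every NPM1 KD library was above every CTR library, and NPM1 KD 1 was the highest. The difference was 1.33 (SE 0.34, n = 3 per condition), and rounding leaves it between 0.33 and 2.33. Hspa5 was the only tested gene of the 40 whose range left by rounding did not include 0.

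Manf and Canx each moved by a whole step, in opposite directions. Manf, a secreted and ER-resident protein that binds BiP, read 6 in all CTR and 7 in all NPM1 KD libraries, a difference of 1.00 (SE 0.35). Canx, the membrane-bound lectin chaperone calnexin, read 8 in all CTR and 7 in all NPM1 KD libraries, a difference of -1 (SE 0.35). Neither gene varied between replicates, and the groups did not overlap in either. A difference of exactly 1 may be anywhere between 0 and 2 in size before rounding. The exons of Manf share 146 bases with Dcaf1 on the opposite strand in GENCODE M21, and whether the counting used the strand is not given, so reads of the pair may not be told apart. Exons of Hsp90b1, Pdia3, Pdia6, Txndc5, Sec61a1, Sec62, Sec63, Ssr2, Rpn1, Rpn2, Dnajb9, Eif2ak3 and Syvn1 also overlap a gene on the opposite strand. On the same strand, exons of Manf share 14 bases with Rbm15b and those of Pdia4 share 14 with Mir704. Those of Hsp90b1 share 84 with Gm15344 and 133 with Gm25745 on its own strand.

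The soluble counterpart of calnexin, Calr (calreticulin), read 7, 8 and 7 in CTR and 7 in each NPM1 KD library, so its groups overlapped. Hsp90b1 (GRP94) read 6, 5 and 6 in CTR against 6, 5 and 5 in NPM1 KD. Both had a difference of -0.33 that 1 step in 1 library makes, and in both the NPM1 KD values lay within the range of CTR.

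Dnajc3, the P58IPK cochaperone of BiP, read 4, 4 and 4 in CTR against 5, 5 and 4 in NPM1 KD, a difference of 0.67 (SE 0.33). NPM1 KD 3 had the CTR value. Dnajb11, another J-domain partner of BiP, read 5, 6 and 6 in CTR and 6 in all NPM1 KD libraries. The remaining 4 chaperone genes had one value in all 6 libraries. They were Hyou1 at 6, the nucleotide exchange factor of BiP, Sdf2l1 and Creld2 at 5, both well known UPR target genes, and Dnajb9 at 4, the ERdj4 cochaperone. Over the 11 chaperones, 4 differences were above 0, 3 below and 4 at 0, with a median of 0.

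None of the protein disulfide isomerases differed by more than 0.33 in the rounded values, and rounding leaves each difference uncertain by up to 1. Pdia3 (ERp57), which works with calnexin and calreticulin on glycoproteins, read 8, 8 and 7 in CTR and 8 in all NPM1 KD libraries. Pdia4 (ERp72) read 4 in all libraries except NPM1 KD 2, where it read 5. Txndc5 (ERp46) read 4, 4 and 3 in CTR and 4 in all NPM1 KD libraries. Each of these 3 differences was 0.33, from 1 step in 1 library, and the groups overlapped. Pdia6 and P4hb, the latter the prototype isomerase PDI, each read 7 in all 6 libraries.

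In the translocon, Sec61b was the gene whose groups did not overlap. Sec61b, the β subunit of the SEC61 channel, read 7 in all CTR and 8 in all NPM1 KD libraries, a difference of 1.00 (SE 0.35). The other subunits did not show that step. Sec61g, the γ subunit, read 9 in all 6 libraries, and Sec61a1, the pore-forming α subunit, read 6, 7 and 6 in CTR against 6, 7 and 7 in NPM1 KD. Whether Sec61b differed from the other subunits was not tested, and after rounding a difference of 1 and a difference of 0 can stand for the same unrounded value.

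Sec62 and Sec63, which help post-translational entry into the channel, and Ssr3, a subunit of the translocon-associated protein (TRAP) complex, had the same pattern. Sec62 and Ssr3 read 8 and Sec63 read 6 in all CTR libraries and in NPM1 KD 2 and 3, and each read 1 higher in NPM1 KD 1 alone. The other TRAP subunits had Ssr2 at 7 throughout, Ssr1 at 6 except for 5 in NPM1 KD 2, and Ssr4 at 6 except for 7 in CTR 2. Over the 9 translocon genes, 5 differences were above 0, 2 below and 2 at 0, with a median of 0.33.

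**Figure D2:**
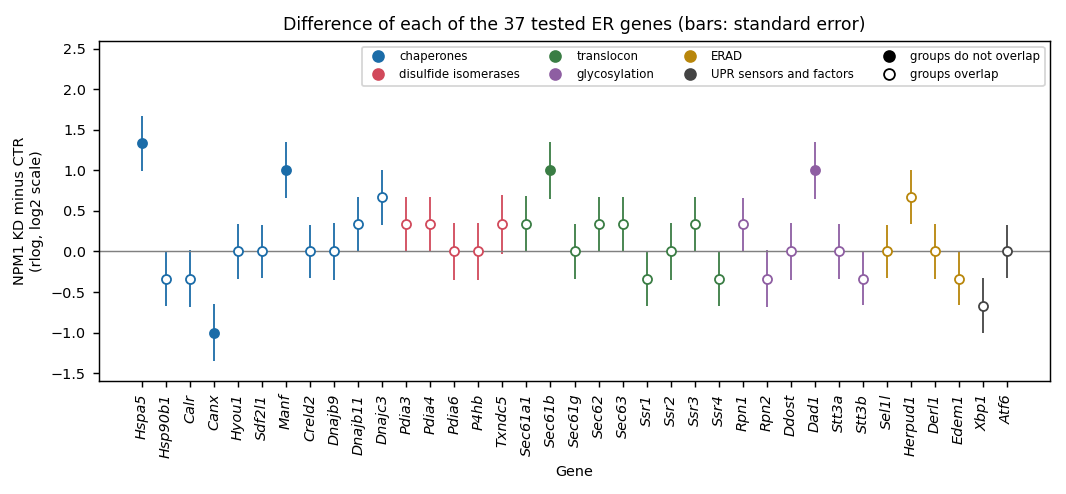
Difference of mean rlog value, NPM1 KD minus CTR (log2 scale), for each of the 37 tested ER genes in order of role, with the standard error of the limma fit as bars and filled points where the 3 libraries of one condition all lie above the 3 of the other. Hspa5 lies at 1.33, Manf, Sec61b and Dad1 at 1.00 and Canx at -1, and the other differences lie between -0.67 and 0.67; rounding allows an error of up to 1 in each.

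Among the genes of N-glycosylation, which encode the oligosaccharyltransferase (OST) that attaches glycans to entering chains, Dad1 had groups that did not overlap. Dad1, a small subunit that is needed for the stability of the complex, read 7 in all CTR and 8 in all NPM1 KD libraries, a difference of 1.00 (SE 0.35). Stt3a, the catalytic subunit of the form of OST that sits at the translocon, read 6 in all 6 libraries, and Stt3b, that of the other form, read 6, 5 and 5 in CTR and 5 in all NPM1 KD libraries. Among the ribophorins and Ddost, Rpn1 read 9 except for 10 in NPM1 KD 1, Rpn2 read 7 except for 6 in NPM1 KD 2, and Ddost read 7 throughout. Hence 2 differences of the 6 were above 0, 2 below and 2 at 0.

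In ERAD, Herpud1 was the gene with the largest difference. Herpud1, a membrane protein that organises the HRD1 ubiquitin ligase complex and a target of the UPR, read 5 in all CTR libraries and 5, 6 and 6 in NPM1 KD, a difference of 0.67 (SE 0.33) with NPM1 KD 1 at the CTR value. Sel1l, the partner of HRD1, read 5 in all 6 libraries, and Derl1, a derlin of the retrotranslocation channel, read 6 in all 6. Edem1, which directs misfolded glycoproteins to degradation, read 4, 5 and 5 in CTR against 5, 4 and 4 in NPM1 KD, so that both groups spanned the same values. HRD1 itself (Syvn1) was too low to test, at 0.96 to 1 in every library.

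Of the UPR sensors and factors, none had a higher mean in NPM1 KD among those tested. Xbp1 read 6, 6 and 6 in CTR against 6, 5 and 5 in NPM1 KD, a difference of -0.67 (SE 0.34), with NPM1 KD 1 at the CTR value. These values count the reads of the gene as a whole and do not tell spliced from unspliced Xbp1 mRNA. Atf6 read 4, 5 and 5 in CTR against 5, 5 and 4 in NPM1 KD, a difference of 0. Ern1 read 3, 2 and 3 in CTR and 2 in all NPM1 KD libraries, and Eif2ak3 read 2, 1 and 2 in CTR against 2, 2 and 1 in NPM1 KD, and for both the groups overlapped.

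The untested genes could be followed in reads. Because a mean normalized count under 10 is given with enough decimals, exactly 1 set of whole reads in the 6 libraries fitted it, to within 1e-09, for each of these genes. Ern1 had 24, 6 and 6 reads in CTR against 2, 3 and 3 in NPM1 KD. Divided by relative depth these were 19.3, 4.61 and 5.38 against 2.55, 3.60 and 3.12. Every NPM1 KD library was below every CTR library, as in 11.2% of the 6167 genes with a mean normalized count in the range of these low genes, while 6.73% of the 6167 were higher in every NPM1 KD library. CTR 1 held most of the CTR reads, and without it the intervals overlap widely: the 95% exact Poisson interval, which covers counting error only, was 1.69 to 10.0 for CTR 2 and 0.743 to 10.5 for NPM1 KD 2.

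Eif2ak3 had 5, 1 and 4 reads in CTR against 3, 3 and 2 in NPM1 KD, or 4.03, 0.768 and 3.59 against 3.83, 3.60 and 2.08 after division by depth. Syvn1 had 2, 1 and 4 reads in CTR against 1, 4 and 1 in NPM1 KD, or 1.61, 0.768 and 3.59 against 1.28, 4.80 and 1.04. Both genes' groups overlapped. With 1 to 5 reads a library and no test run, the values do not tell whether these genes differed. Exons of Syvn1 share 91 bases with Mrpl49 on the opposite strand.

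**Figure D3:**
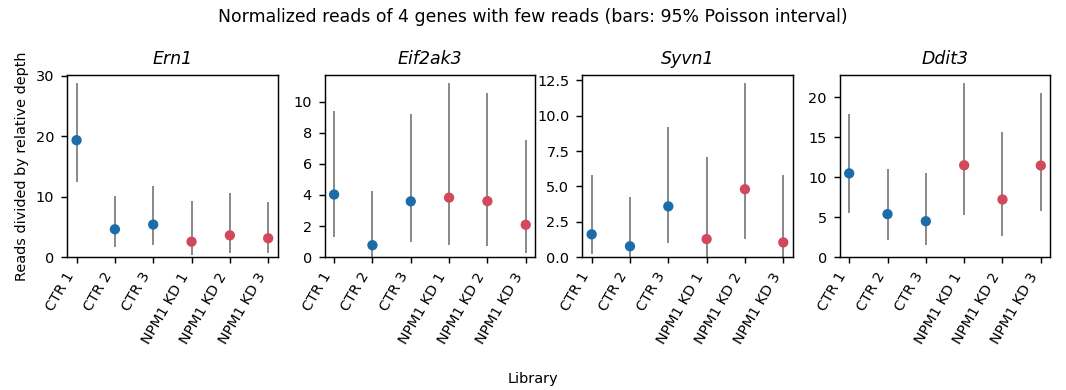
Reads divided by relative depth in each library for Ern1, Eif2ak3, Syvn1 and Ddit3, with CTR in blue, NPM1 KD in red and 95% exact Poisson intervals as bars (each panel has its own axis). Ern1 in CTR 1 stands at 19.3 while the other 5 libraries lie between 2.55 and 5.38, and the groups overlap in the other 3 genes.

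One library, NPM1 KD 1, read higher than both other replicates of its condition in 8 of the 37 tested genes (Edem1, Hsp90b1, Hspa5, Rpn1, Sec62, Sec63, Ssr3 and Xbp1), where 8.10% of all tested genes did so, and lower in 2 (Herpud1 and Sec61a1). No other library stood above both of its replicates in more than 3 of the genes. NPM1 KD 1 also had the lowest relative depth, 0.784, and the part of depth in this was not tested. Without this library the difference of Hspa5 was 1.00 in place of 1.33, and the differences of Rpn1, Sec62, Sec63 and Ssr3 were 0 in place of 0.33. Others were larger in size without it. Herpud1 stood at 1.00 in place of 0.67 and Xbp1 at -1 in place of -0.67, Hsp90b1 and Edem1 at -0.67 in place of -0.33, and Sec61a1 at 0.67 in place of 0.33.

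**Figure D4:**
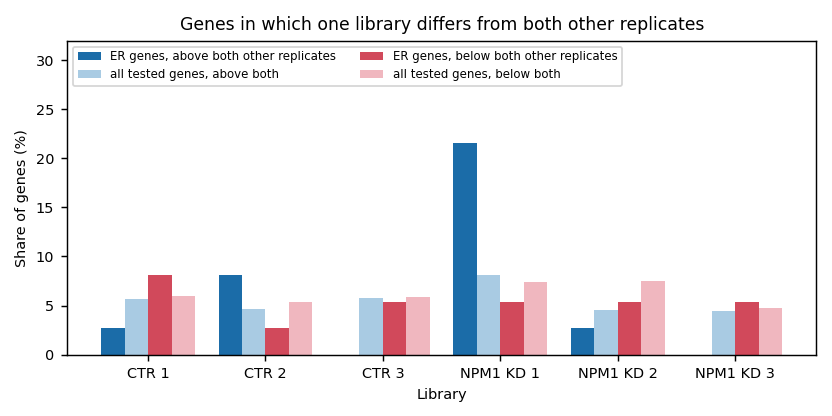
Share of genes (%) in which a library reads above (blue) or below (red) both other replicates of its condition, for the 37 tested ER genes (dark) and all 5752 tested genes (light). NPM1 KD 1 stands above in 8 of 37 ER genes, against 8.10% of all tested genes.

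Of the 8 genes with an ERSE match, 7 were tested. By the sign of the difference alone, 2 had a higher mean in NPM1 KD (Hspa5 and Dnajc3), 3 a lower mean (Canx, Calr and Hsp90b1) and 2 the same (Creld2 and Pdia6). Rounding leaves a range that includes 0 for each of the 7 except Hspa5, and these values had a part in choosing the genes, so nothing is read from the split. Among the 29 other genes with the match, 5 were tested, of which 0 were higher, 2 lower and 3 the same. The ERSE-II gene Herpud1 had a difference of 0.67 and Dnajb11 of 0.33.

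Of 84 other ER and UPR genes listed by role, 82 were found by symbol and 66 tested. Their differences were above 0 in 13, below 0 in 21 and 0 in 32, with a median of 0. Of these, 0 passed the limma test after adjustment, and 10 had an unadjusted p under 0.05. Of the 10, 6 were higher, beside 6.07% of all tested genes, and 4 lower, beside 8.07%. The groups did not overlap in 4 that read 1 higher in NPM1 KD, where 2.19% of all tested genes were higher without overlap, and in 2 that read 1 lower, where 3.41% were lower.

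Of the 4, Serp1, a small protein bound to the SEC61 channel, went from 5 to 6 in all libraries. Selenos and Nploc4, which recruit or assist the p97 ATPase in ERAD, also went from 5 to 6, and Ppp1r15a (GADD34), which returns eIF2α to its unphosphorylated state, from 3 to 4. The other two were Calu, a calcium-binding protein of the ER, from 6 to 5 and Rcn2, a related one, from 5 to 4, while Rcn1, also related, read 4 in all 6 libraries.

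The list of further folding enzymes and cochaperones had 18 tested genes, of which 0 had a higher mean, 11 a lower mean and 7 the same, with a median difference of -0.33. The disulfide-forming Ero1a, for instance, read 7, 6 and 7 in CTR against 7, 6 and 6 in NPM1 KD, and Pdia5 4, 4 and 3 against 3 in all. In the list of signal recognition particle and signal peptidase genes, 5 of 13 were higher, 2 lower and 6 the same. In that of glycan processing, 1 of 10 was higher and 3 lower, and among other ERAD factors 3 of 13 were higher and 2 lower. Of 3 tested genes for site proteases and related CREB3 factors, 1 was higher and 2 lower. Among all tested genes, 24.6% were higher, 27.4% lower and 48.0% the same. Rounding leaves each difference uncertain by up to 1, and the lists were chosen with earlier results of these data known. Nothing is therefore read from these splits.

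In the PERK and ATF4 branch, 3 of 9 genes were higher, 1 lower and 5 the same. Atf4 read 8, Trib3 5 and Chac1 4 in all 6 libraries, the last 2 being transcriptional targets of ATF4. Ddit3, which encodes CHOP, was too low to test. It had 13, 7 and 5 reads in CTR against 9, 6 and 11 in NPM1 KD, or 10.5, 5.38 and 4.49 against 11.5, 7.21 and 11.5 after division by depth, and its groups overlapped. Asns, another target of ATF4 and the 1 lower gene, read 7, 8 and 8 in CTR and 7 in all NPM1 KD libraries. The 3 higher genes were Ppp1r15a, Ppp1r15b and Atf3. Ppp1r15b read 4, 5 and 4 in CTR and 5 in all NPM1 KD libraries, and Atf3 4, 4 and 3 against 4 in all.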

How the data were processed

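Long-read cDNA libraries of 3 CTR and 3 NPM1 KD samples of N2a cells were analysed as deposited. The submitters' processing notes name minimap2, featureCounts, DESeq2 and the GRCm39 build, without versions or settings, and total reads are not given. The authors deposited rlog values, a score on the log2 scale that was written as whole numbers where 1 or more in size. From a second table, in which the authors deposited the fold change, its error, the statistic and p-values of their own comparison, only their mean normalized count over the 6 libraries was used. Of 26913 rows, 26656 Ensembl IDs were kept.

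The 5752 genes whose rlog values average at least log2 of 10 were fitted with limma 3.58.1 in R 4.3.3 (intensity trend, variance within groups of at least 0.0833, the variance that rounding adds), two-sided, with Benjamini-Hochberg adjustment over all of them and a threshold of 0.05. The fit was tried on simulated data only with changes larger than any difference seen in these ER genes. Its recovery of differences as small as theirs was not tested. Relative depths were the set of 6 values with which the authors' mean normalized counts of genes with few reads come out as whole reads, assigned to libraries by the correlation of those reads with the rlog values (0.9986 to 0.9993 over 1372 genes). Reads were worked out for the 16 listed genes with a mean count above 0 and under 10, and, for the background, for the 6167 genes of the same range, a step chosen after the data were seen. Promoters are from RefSeq (GRCm38.p6) and overlaps of exons from GENCODE M21. They serve for sequence and neighbourhood only, since the counts use another build.

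All 40 genes were named by role, with the values of every library for those whose groups do not overlap or differ by 0.67 or more and for the sensors. The members, the lists and the limit on the variance were chosen with earlier results of these data known. The alternatives were other variance and filter settings, centring, a replicate block and leaving out each library. Counting error and rounding both limit the precision, and no batch is labelled.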

Additional observations from a re-analysis of the deposited data

How the results depend on the processing

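In the fit reported, 1 of the ER genes passed as higher, 0 as lower and 0 of the wider lists passed. Without the lower limit on the variance these counts were 3, 1 and 6 (Manf, Sec61b and Dad1 higher, Canx lower, and Hspa5 not among them), and without the intensity trend 4, 1 and 6. With a mean of at least log2 of 50, which leaves 1879 genes and 25 of the ER genes, 4 passed as higher and 1 as lower. Without a filter (14776 genes) 0 passed as higher. Leaving out a library gave 0 to 0 higher, so the call of Hspa5 holds with all 6 libraries only. Over all tested genes, 4 higher and 24 lower became 123 and 178 without the limit, 132 and 218 without the trend, 1 and 10 without the filter and 53 and 76 with the stricter one, and leaving out a library gave 0 to 2 higher and 5 to 9 lower. With libraries centred the calls stayed at 1, 0 and 0. The cause of these shifts was not tested.

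With the replicate number as a block, 0 ER genes passed as higher and, over all genes, 1 higher and 7 lower. Same-numbered libraries did not deviate together (correlations of 0.0089, 0.0013 and 0.0298), so the numbers are taken as names, not as a pairing.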

Other observations

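Of the 16 low genes whose reads could be worked out, 1 was higher and 2 were lower in every NPM1 KD library than in every CTR library after division by depth, beside 6.73% and 11.2% of the 6167 genes with a mean normalized count in the same range, from 0.659 to 10. Besides Ern1, the lower one was Dnajc10 (ERdj5, a reductase of the ER that takes part in ERAD), with 10, 10 and 10 reads in CTR against 3, 4 and 7 in NPM1 KD, a mean of 8.24 ± 0.67 against 5.31 ± 1.78 after division by depth (SD, n = 3). The higher one was Edem3, a mannosidase-like ERAD factor, at 3.28 ± 1.36 against 7.11 ± 1.87. These genes were named after their values were seen, and no test was run on them.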
